A study of Mus musculus with 6 samples.

Results

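The genes described here are 10 known targets of Wnt signalling: Axin2, Rnf43, Znrf3, Nkd1, Notum, Sp5, Tcf7, Lef1, Myc and Sox9. They were chosen by name from the 24956 genes of the deposited table, and all 10 were found there. RNA was sequenced from intestinal organoids, epithelial cultures that grow in organoid medium, of the Apc Min genotype. Min is an allele of Apc with a premature stop codon, and both groups carry it. The 3 control cultures had a control treatment whose content is not given in the sources used here, and the 3 treated cultures had DM-aKG, a dimethyl ester of α-ketoglutarate that enters cells. The series calls the replicates biological, but it does not say whether they are separate mice or cultures of a single line, so p-values measure the spread between these 6 cultures. Dose, duration and the age of the animals are not given either.

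Wnt ligands stabilise β-catenin, which enters the nucleus, joins transcription factors of the TCF/LEF family and switches on target genes. APC belongs to the complex that destroys β-catenin, so its loss leaves the pathway active without ligand in intestinal tumours. Whether the present cultures keep a working copy of Apc cannot be told from RNA levels per gene. Several targets feed back: AXIN2 is a scaffold of the destruction complex, RNF43 and ZNRF3 are ubiquitin ligases that remove Frizzled receptors, NKD1 binds Dishevelled, and NOTUM is a secreted enzyme that strips the lipid from Wnt ligands. Others are transcription factors: TCF7 and LEF1 bind DNA with β-catenin, and SP5 is a zinc finger factor. MYC drives growth and biosynthesis, and SOX9 is a factor of crypt progenitors and Paneth cells. Both are called growth targets below, which is a label for the comparison. For SOX9 the label does not mean that the gene drives growth.

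Levels are in RPKM, which counts reads relative to transcript length and to the size of the library. The libraries held an estimated 32.7 to 34.3 × 10⁶ reads each. The epithelial label held: markers of epithelium (Epcam, Cdh1, Krt8, Krt18, Krt19, Vil1 and Cdx2) summed to 2593 to 2648 RPKM in control and 3418 to 4326 in DM-aKG. By limma calls at an adjusted p under 0.05, 5 of these 7 were higher and 2 lower. Epcam fell from 421 ± 4.48 to 334 ± 7.12 RPKM and Cdx2 from 70.3 ± 1.99 to 40.6 ± 8.90 (mean ± SD, n = 3). Markers of fibroblasts and muscle summed to 0.03 to 0.09 RPKM in every library, with Col3a1 and Dcn at 0. The 5 endothelial and glial markers summed to 0.57 to 0.75 RPKM in control and 1.24 to 1.39 in DM-aKG, with Cdh5 and Kdr at 0, Pecam1 at 0.140 ± 0.03 and 0.310 ± 0.03 (mean ± SD, n = 3) and S100b at 0.270 ± 0.06 and 0.850 ± 0.07. Immune markers (6 genes) summed to 0.99 to 2.50 RPKM, most of it Cd68, and Ptprc was at 0 or 0.01. The marker counts that follow are of the same limma calls. Of all tested genes, 55.6% were called, 24.7% lower and 30.9% higher. The share called was 100% for crypt stem and proliferation markers, 85.7% for Paneth, 83.3% for enteroendocrine and 71.4% for goblet and enterocyte markers. Markers of crypt stem cells fell in all 7 tested of 7 (sums of 578 to 645 RPKM in control and 246 to 333 in DM-aKG), and Paneth markers in 6 of 7 tested (8 listed). Goblet markers were lower in 5 of 7, 1 of which, Spdef, reached the mean of 1 RPKM needed for a test only through control (sums of 1420 to 1549 RPKM in control and 525 to 720 in DM-aKG). Enteroendocrine markers were higher in 5 of 6 (sums of 358 to 378 and 522 to 542 RPKM). Of 7 enterocyte markers 3 were higher and 2 lower, with sums of 1282 to 1475 and 1189 to 1243 RPKM. Among 6 proliferation markers 4 rose and 2 fell, with sums of 334 to 347 and 347 to 357 RPKM. A pair of libraries stood apart in their groups. The Paneth markers summed to 1695 RPKM in DM-aKG replicate 1 and to 745 and 717 in replicates 2 and 3, and to 2919 RPKM in control replicate 2 against 2234 and 2318 in the other controls. In bulk RNA, fewer cells of a type and less RNA per cell cannot be told apart. The part of these shifts in the results below was not tested. For the 10 genes and their pairs, values without these libraries are given where they move.

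Some of the Wnt targets fell with DM-aKG and others did not pass the test. Of the 10 genes, 7 passed the filter of a mean of at least 1 RPKM over all libraries, and 3 of these fell: Axin2, Znrf3 and Sp5. None of the 7 rose past the threshold (limma, adjusted p under 0.05). Over all 10852 genes tested, 55.6% were called, 24.7% lower and 30.9% higher, so a large share of the transcriptome was called, and the count among so few genes is a description. The median log2 fold change of the 7 was -0.21, beside 0.02 for all tested genes. Nkd1, Notum and Lef1 lay below the filter and are given by their values.

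**Figure D1:**
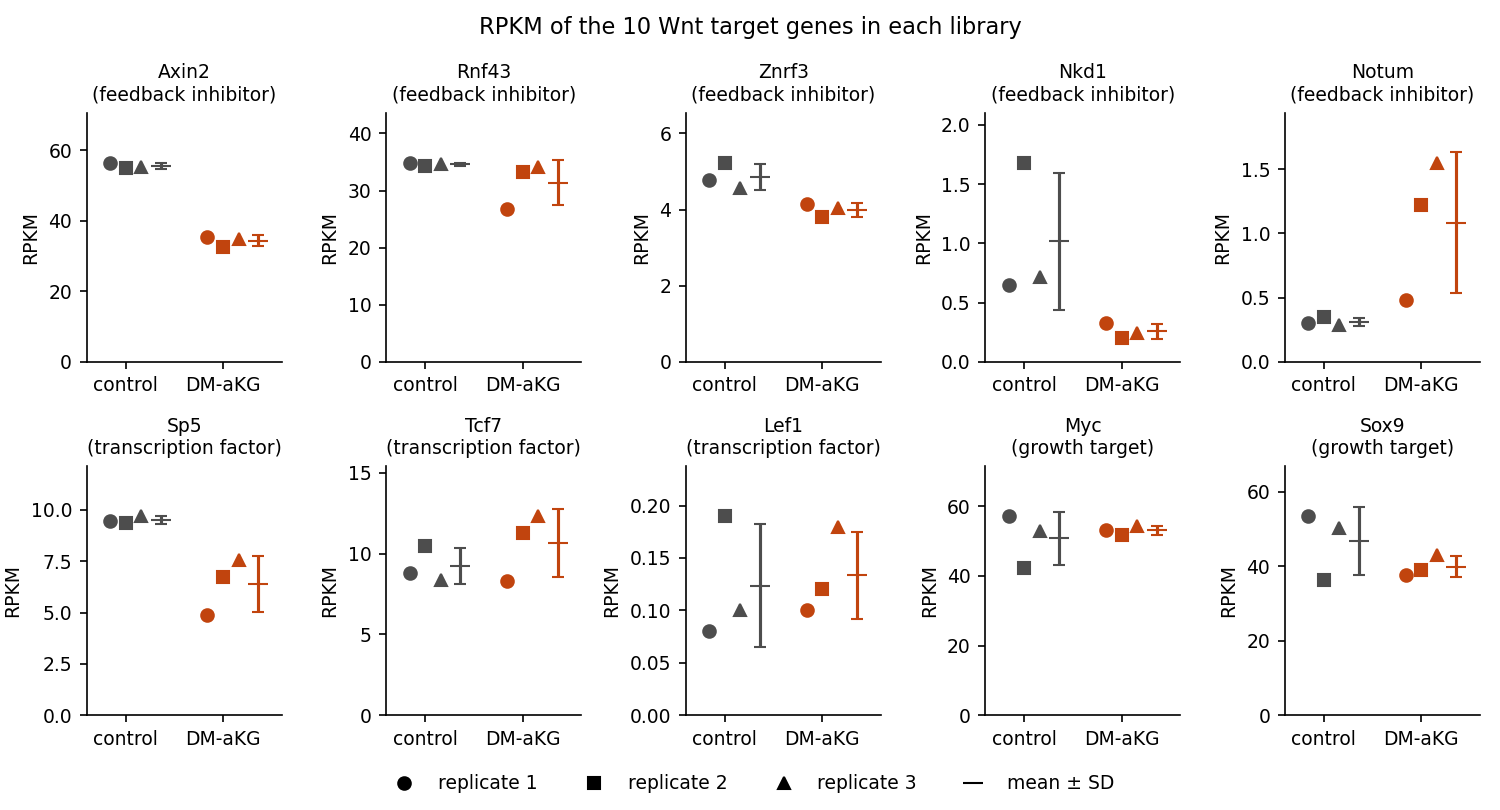
RPKM of each of the 10 genes (one panel each, y axis from 0, scales differ) in 3 control and 3 DM-aKG libraries, with the marker shape giving the replicate number and the bar the mean ± SD. Axin2 lies at 54.9 to 56.5 RPKM in control and 32.5 to 35.5 in DM-aKG, while the Myc and Sox9 groups overlap.

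Levels spanned a wide range. In control, RPKM (a level per length of the annotated transcript) was highest for Axin2 (55.5 ± 0.818; mean ± SD, n = 3, as throughout), Myc (50.8 ± 7.61) and Sox9 (46.7 ± 9.15). The range of Myc overlapped with those of both others, whereas Axin2 was above Sox9 in every library. Rnf43 followed at 34.6 ± 0.279, then Sp5 (9.50 ± 0.180) and Tcf7 (9.23 ± 1.10), again with overlapping ranges, and Znrf3 at 4.86 ± 0.338. Nkd1 (1.02 ± 0.576), Notum (0.313 ± 0.0321) and Lef1 (0.123 ± 0.0586) came last. In DM-aKG the order was different. Axin2 (34.3 ± 1.58) stood below Myc (53.1 ± 1.34) and Sox9 (39.8 ± 2.80) in every library and overlapped with Rnf43 (31.3 ± 3.93). Tcf7 (10.6 ± 2.11) stood above Sp5 (6.38 ± 1.36), and Notum (1.08 ± 0.548) above Nkd1 (0.257 ± 0.0666).

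Axin2 had the clearest change of the 10. Its values were 56.45, 54.86 and 55.32 RPKM in control and 35.54, 32.53 and 34.85 in DM-aKG. All 3 treated libraries lay far below all 3 controls, and the spread within each group was small. The level fell by 38.2%, or -0.69 ± 0.04 as a log2 fold change with its SE (limma, adjusted p = 2.70e-05), which placed Axin2 at rank 180 by p among all tested genes. Of the 2679 genes called lower, 372 (13.9%) fell at least as far. Axin2 was called under all 18 alternatives, with log2 fold changes of -0.76 to -0.65. Its paralog Axin1, which is not a Wnt target, fell by less (log2 fold change -0.16 ± 0.04; limma, adjusted p = 0.0161). The ratio of Axin2 to Axin1 was 3.07, 2.99 and 2.95 in control and 2.06, 2.01 and 2.15 in DM-aKG, without overlap (two-sided exact permutation test, p = 0.10, the smallest that 3 against 3 allows). The genes whose profile over the 6 libraries was most like that of Axin2 were Snn, Aldh1l1 and Btg2, each at Pearson r = 0.999. Of 9005 genes ranked, 858 had r above 0.95, so many genes were nearly as alike. Any clean fall between the groups gives a high r, whatever its size. The log2 fold changes of these 3 genes were -1.86, -0.96 and -0.27, and shared regulation with Axin2 was not tested.

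The receptor ligases moved less. Znrf3 was at 4.77, 5.23 and 4.57 RPKM in control and 4.16, 3.80 and 4.03 in DM-aKG. The groups did not overlap, and Znrf3 passed with a log2 fold change of -0.25 ± 0.07 (limma, adjusted p = 0.0141). Its call was lost without DM-aKG replicate 2 (limma, log2 fold change -0.22, adjusted p = 0.0548). Rnf43, its homolog, stood at 34.86, 34.32 and 34.71 RPKM in control and 26.84, 33.16 and 34.04 in DM-aKG. The treated libraries lay just below the controls, but only replicate 1 by a wide margin, and Rnf43 did not pass (log2 fold change -0.15 ± 0.08; limma, adjusted p = 0.167). With that library left out, Rnf43 had a log2 fold change of -0.04 (limma, adjusted p = 0.309). The ratio of Rnf43 to Znrf3 was 7.16 ± 0.533 in control and 7.87 ± 1.24 in DM-aKG, with overlapping groups (two-sided exact permutation test, p = 0.50).

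Nkd1 and Notum, both below the filter, went in opposite directions. Nkd1 was at 0.65, 1.68 and 0.72 RPKM in control and 0.33, 0.20 and 0.24 in DM-aKG. Every treated library was below every control, and control replicate 2 stood apart at the top. Notum was at 0.30, 0.35 and 0.29 RPKM in control and 0.48, 1.22 and 1.55 in DM-aKG. All treated libraries were above all controls, with DM-aKG replicate 1 closest to them. At the estimated depth, and with the longest annotated coding transcript as length, these levels stand for about 27 to 230 reads of Nkd1 and about 21 to 112 of Notum, and counting error alone is then about 19.2% and 21.8% at the lowest value. The length behind the RPKM is not given, so these read numbers are approximate. On the log2(RPKM + 0.5) scale, which understates the change of such low genes, the differences were -0.94 for Nkd1 and 0.90 for Notum. With no filter the adjusted p-values were 0.0271 and 0.0400 (limma). Without control replicate 2 the difference for Nkd1 was -0.65, and without DM-aKG replicate 1 that for Notum was 1.21. Of the 5 feedback inhibitors, 4 were thus lower and 1 higher in every treated library than in every control. Among all tested genes, groups without overlap made up 64.2%, 28.9% lower and 35.3% higher, so such a separation was common. Nkd1 and Notum are not among these tested genes, and the share over genes below the filter is not given here.

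**Figure D2:**
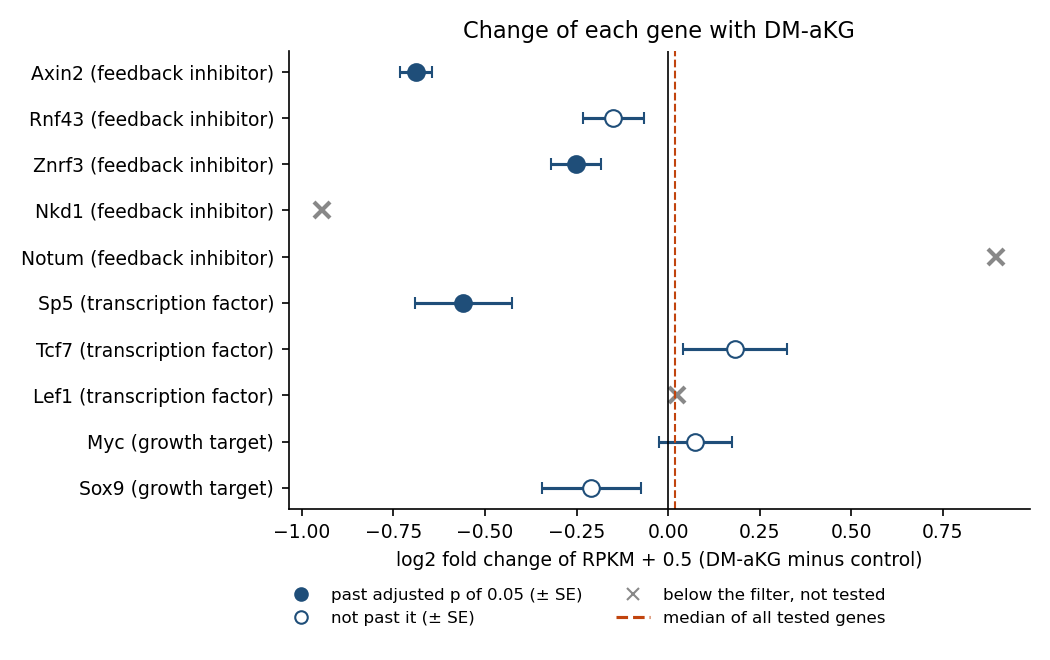
Log2 fold change of RPKM + 0.5 (x axis, DM-aKG minus control) for each gene (y axis), with SE from limma; filled points are past an adjusted p of 0.05, open points are not, crosses are genes below the filter without a test, and the dashed line is the median of all tested genes (0.02). Axin2, Sp5 and Znrf3 are the filled points, and Nkd1 (-0.94) and Notum (0.90) lie farthest out on either side.

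Among the transcription factors Sp5 fell. Its values were 9.45, 9.35 and 9.70 RPKM in control and 4.89, 6.71 and 7.55 in DM-aKG. The controls lay close together and the treated libraries below them were spread out, with replicate 1 lowest. Sp5 had a log2 fold change of -0.56 ± 0.13 (limma, adjusted p = 0.00828), and of -0.39 when DM-aKG replicate 1 was left out (limma, adjusted p = 0.000842). It was called under all 18 alternatives. The 250 bases before the annotated starts of Sp5 and Axin2, the genes with the clearest falls, are shown to compare the letters a TCF/LEF factor is known to favour. Capitals mark the core CTTTG or its reverse complement CAAAG. The Sp5 window is chr2:70474673-70474922 and the Axin2 window chr11:108920099-108920348, both on the plus strand of GRCm38.p6 (sequences from RefSeq).
Sp5: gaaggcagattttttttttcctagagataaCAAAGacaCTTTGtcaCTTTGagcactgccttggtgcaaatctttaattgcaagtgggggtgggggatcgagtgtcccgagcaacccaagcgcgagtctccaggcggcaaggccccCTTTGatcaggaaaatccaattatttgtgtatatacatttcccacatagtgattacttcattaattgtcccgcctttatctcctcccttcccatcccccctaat
Axin2: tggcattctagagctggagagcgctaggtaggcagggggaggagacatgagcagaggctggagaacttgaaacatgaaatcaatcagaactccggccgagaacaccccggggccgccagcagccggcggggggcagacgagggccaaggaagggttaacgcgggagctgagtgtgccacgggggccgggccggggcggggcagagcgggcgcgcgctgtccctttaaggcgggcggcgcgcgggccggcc
The Sp5 window held the core 4 times and the Axin2 window 0 times. Of all 32851 windows of the same length, 48.6% held the core at least once and 0.773% at least 4 times, on either strand and with overlaps counted. The longer motif CTTTGAT, whose reverse complement is ATCAAAG and which contains the core, occurred once in the Sp5 window, starting 104 bases before the start, and in 3.21% of all windows. These matches describe letters and not bound sites. Promoter entries were matched for 6 of the 10 genes, and Znrf3, Notum, Myc and Sox9 had none. The windows of Lef1 held the core 1 to 3 times, and those of Rnf43, Tcf7 and Nkd1 0 times. Bases G and C made up 46.0% of the Sp5 window and 69.2% of the Axin2 window.

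Tcf7 and Lef1, the TCF/LEF genes of the set, did not pass. Tcf7 was at 8.82, 10.47 and 8.39 RPKM in control and 8.28, 11.31 and 12.33 in DM-aKG. DM-aKG replicate 1 was the lowest of all 6 and the other treated libraries the highest, so the groups overlapped (log2 fold change 0.18 ± 0.14; limma, adjusted p = 0.303). Without DM-aKG replicate 1 Tcf7 was called higher (log2 fold change 0.35; limma, adjusted p = 0.0122), and without control replicate 2 as well as that library the value was 0.44 (limma, adjusted p = 0.000408). Lef1 was barely detected, at 0.08, 0.19 and 0.10 RPKM in control and 0.10, 0.12 and 0.18 in DM-aKG, about 9 to 22 reads per library, and no difference was detectable at this depth. Among the 4 TCF/LEF genes, Tcf7 held 50.7% ± 2.19 of the summed RPKM in control and 49.3% ± 1.57 in DM-aKG (two-sided exact permutation test, p = 0.40), and nearly all the rest was Tcf7l2 (8.79 ± 0.371 and 10.7 ± 1.64 RPKM; limma, adjusted p = 0.0557).

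Neither growth target passed in the main fit, which keeps all libraries without weights. Myc was at 57.20, 42.38 and 52.80 RPKM in control and 53.31, 51.65 and 54.30 in DM-aKG. The treated values fell inside the range of the controls, and control replicate 2 was lowest. The log2 fold change was 0.07 ± 0.10 (limma, adjusted p = 0.550), and it was -0.05 without control replicate 2 (limma, adjusted p = 0.463). Sox9 was at 53.47, 36.28 and 50.32 RPKM in control and 37.59, 38.90 and 42.96 in DM-aKG. Control replicate 2 was again lowest, below all treated libraries, while the other controls were above them. In the main fit Sox9 did not pass, at a log2 fold change of -0.21 ± 0.13 (limma, adjusted p = 0.218). Without control replicate 2 it was called lower at -0.38 (limma, adjusted p = 0.00509). With DM-aKG replicate 1 left out too it was lower at -0.34 (limma, adjusted p = 0.00124). With all libraries kept but weighted (array weights), Sox9 was also called lower, at -0.28 (limma, adjusted p = 0.0219). The call of Sox9 thus depends on control replicate 2 and on the weighting of libraries.

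**Figure D3:**
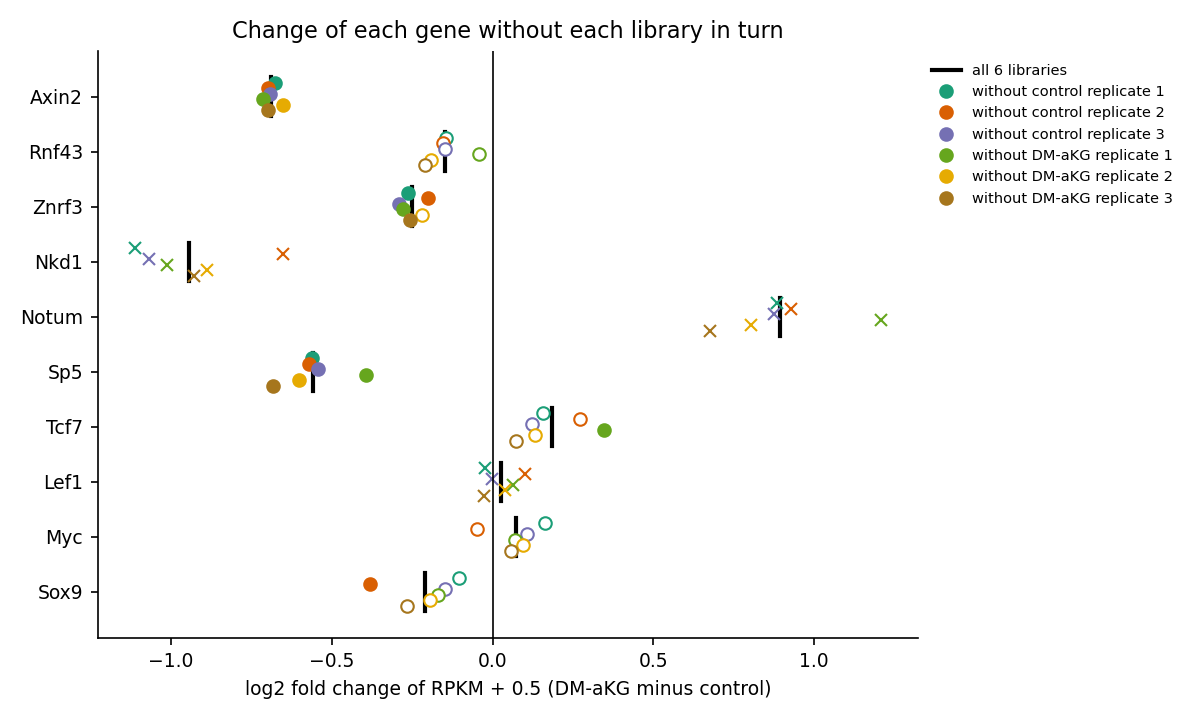
Log2 fold change of each gene (x axis, DM-aKG minus control) with each library left out in turn (colours); the black bar is the value with all 6 libraries, filled points are past an adjusted p of 0.05 in limma, open points are not, and crosses are genes below the filter. Sox9 is filled only without control replicate 2 (-0.38) and Tcf7 only without DM-aKG replicate 1 (0.35).

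To compare feedback inhibitors with growth targets directly, the log2 level of each tested inhibitor was set against that of each growth target within the same library, which gave 6 pairs. Scaling of a library cancels in such a difference, apart from the pseudocount. Axin2 minus Myc was -0.02, 0.37 and 0.07 in control and -0.58, -0.66 and -0.63 in DM-aKG. The groups were far apart, and the difference moved by -0.76 ± 0.12 (SE). Axin2 minus Sox9 moved by -0.48 ± 0.18 and Znrf3 minus Myc by -0.33 ± 0.18, both without overlap. Control replicate 2, with the lowest Myc and Sox9, weighs on these values: without it Axin2 minus Sox9 moved by -0.32, Znrf3 minus Myc by -0.15 and Axin2 minus Myc by -0.65, and with DM-aKG replicate 1 omitted too by -0.38, -0.18 and -0.67. For these 3 pairs the two-sided exact permutation test gave p = 0.10, the smallest possible, and an adjusted p of 0.20 over the 6 pairs, so this test could not take any of them past 0.05. The other pairs overlapped: Rnf43 minus Myc moved by -0.22 ± 0.16 (exact permutation p = 0.40), Rnf43 minus Sox9 by 0.06 ± 0.18 (exact permutation p = 0.80) and Znrf3 minus Sox9 by -0.04 ± 0.23 (exact permutation p = 1.0). Without control replicate 2 these were -0.11, 0.22 and 0.18, and with both libraries omitted 0.0035, 0.29 and 0.11. Averaged over the tested genes of each kind, inhibitors minus growth targets was -1.34, -0.83 and -1.27 in control and -1.45, -1.43 and -1.46 in DM-aKG. The treated libraries were below every control, closest to control replicates 1 and 3 and far from control replicate 2.

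**Figure D4:**
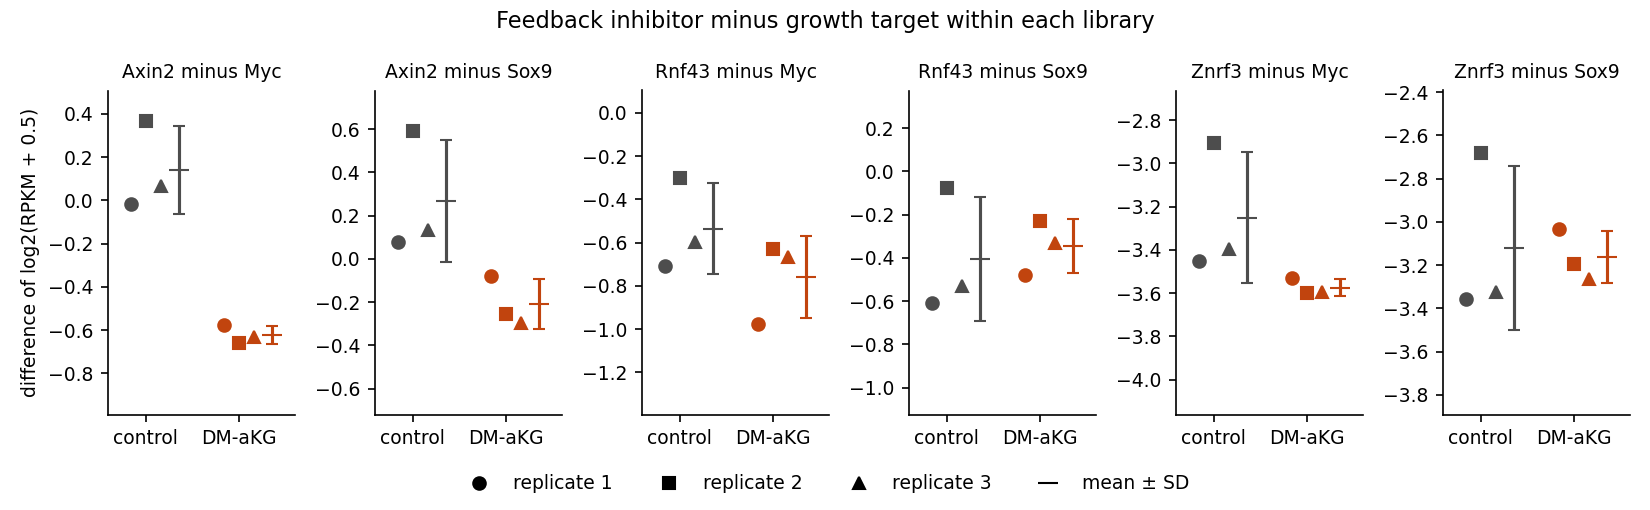
Difference of log2(RPKM + 0.5) between a feedback inhibitor and a growth target within each library (y axis, the same span in every panel), for 3 control and 3 DM-aKG libraries with mean ± SD; marker shapes give the replicate number. Axin2 minus Myc separates the groups most (-0.76), and the groups overlap for both Rnf43 pairs and for Znrf3 minus Sox9.

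Other genes of the pathway went both ways. Of 21 further Wnt antagonists 5 passed the filter, of which 4 fell and 1 rose (list median -0.27). All 5 were thus called, beside 55.6% of all tested genes. Axin1, set beside Axin2 above, is among those that fell and is not a second observation. With equal RPKM sums 3 were called lower, as without control replicate 3, DM-aKG replicate 2 or DM-aKG replicate 3. Shisa2, of a family that holds back Frizzled maturation, fell by 0.94 ± 0.07 on the log2 scale, the Dishevelled-binding gene Dact2 fell by 0.61 ± 0.08, and the Dickkopf receptor gene Kremen1 fell by 0.27 ± 0.05. Tpbg, a membrane inhibitor of Wnt signalling, rose from 1.34 ± 0.223 to 2.05 ± 0.0902 RPKM. Among 16 other intestinal targets, 14 were tested, of which 3 rose and 7 fell (median -0.24), or 71.4% called. Of the 7 that fell, Lgr5, Ascl2 and Rgmb are also counted above as crypt stem markers and Mmp7 as a Paneth marker. Their falls are therefore not a second observation. Fosl1, an AP-1 factor gene, is 1 of the 3 but passed the filter only through DM-aKG (0.0933 ± 0.00577 RPKM in control and 3.19 ± 0.896 in DM-aKG); without it 2 of 13 rose and 7 fell (median -0.31). The ephrin receptor gene Ephb3 fell by 1.09 ± 0.06. The other two that rose were Cd44, a hyaluronan receptor gene (0.90 ± 0.04), and Plaur, the urokinase receptor gene (2.40 ± 0.18).

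Of the nuclear partners of TCF, 3 of 13 tested genes were higher and 5 lower (17 listed, median -0.05). This is 61.5% called, near the 55.6% of all tested genes. Ctnnbip1, an inhibitor that binds β-catenin, fell by 0.50 ± 0.06, the corepressor genes Tle3 and Ctbp1 fell by 0.60 ± 0.09 and by 0.21 ± 0.04, and the coactivator gene Bcl9l rose by 0.49 ± 0.08. Ctnnb1, the β-catenin gene, was named after its values were seen; it rose from 223 ± 7.32 to 266 ± 15.8 RPKM (limma, adjusted p = 0.00580). Leaving out DM-aKG replicate 1 gave 5 higher, and leaving out control replicate 1 or 3 or DM-aKG replicate 2 or 3 gave 3 lower.

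Of 12 genes of the network of Myc, whose own level did not pass, 11 were tested, with 3 higher and 6 lower (median -0.22), or 81.8% called beside the 55.6% of all genes. Mycl, a MYC family member, fell from 14.4 ± 0.836 to 6.04 ± 1.29 RPKM, and Mxd4, which competes with MYC for its partner MAX, fell by 0.83 ± 0.16 on the log2 scale. Mxd1, a second competitor, rose from 6.63 ± 1.06 to 12.9 ± 2.27 RPKM, and Mlx by 0.40 ± 0.06. Of 20 growth genes known to be induced by MYC, all tested, 5 were higher and 8 lower (median -0.07), and this share of 65.0% is near that of all genes. Cdk4, a cell cycle kinase gene, fell by 0.63 ± 0.06 and the nucleolar gene Fbl by 0.41 ± 0.05, whereas Cad, of pyrimidine synthesis, rose by 0.46 ± 0.05 and the telomerase gene Tert by 0.62 ± 0.09. With median centring 2 of them were higher, as without control replicate 2 or 3, and 3 were without control replicate 1 or DM-aKG replicate 2 or 3. Without DM-aKG replicate 1, 6 of these 20 were higher and 11 lower, beside 3674 and 3188 of all 10852 tested genes. With control replicate 2 omitted too, 5 were higher and 11 lower. Of 17 relatives of Sox9 and Sp5, 8 were tested, with 1 higher and 4 lower (median -0.07), or 62.5% called, again near the background. Sox4 fell from 77.3 ± 2.96 to 26.6 ± 7.07 RPKM, Sox12 by 0.63 ± 0.11 and Sp3 by 0.21 ± 0.06 on the log2 scale, and Sox13 rose by 0.27 ± 0.08. Without control replicate 3, DM-aKG replicate 2 or DM-aKG replicate 3 none of these relatives was called higher (0), without DM-aKG replicate 1 there were 3, and without control replicate 3 or DM-aKG replicate 3 there were 2 lower. All of these genes named as changed passed limma with groups that did not overlap, with adjusted p-values of at most 0.0190. Up to 4 genes per list were named because they passed with the smallest p, so their passing is no further evidence.

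**Figure D5:**
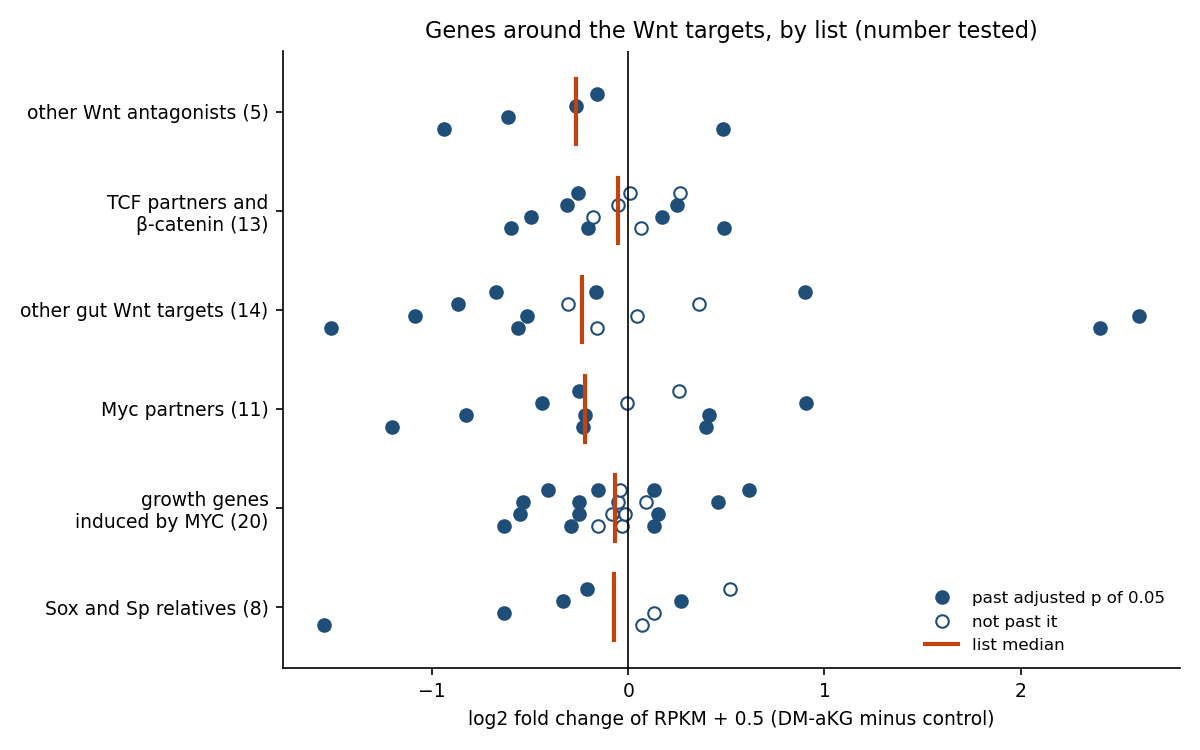
Log2 fold change of RPKM + 0.5 (x axis, DM-aKG minus control) of every tested gene of 6 lists (y axis, number tested in brackets); filled points are past an adjusted p of 0.05 in limma, open points are not, and the vertical bars are list medians. Medians lie between -0.27 and -0.05, and every list has filled points on both sides of 0.

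On GRCm38 (GENCODE), Axin2 lies on chromosome 11, 108920349 to 108950783 (plus strand), Notum on chromosome 11, 120653788 to 120661175 (minus strand), and Sp5 on chromosome 2, 70474923 to 70477729 (plus strand). Myc lies on chromosome 15, 61985391 to 61990374, and Sox9 on chromosome 11, 112782224 to 112787760, both on the plus strand. All are annotated as protein-coding genes.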

How the data were processed

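The authors deposited a table of RPKM values, with 2 decimals, for 24956 genes and 6 libraries of total RNA. CASAVA 1.8, HISAT2 2.0.4, Partek and the build mm10 are named, per the submitters' processing notes; which step each served, the annotation and the handling of reads shared between genes were not given in the sources used here. No batch is named in the labels. TruSeq SR Cluster V3 kits are named, per the labels' protocols. Strand and RNA selection are not given, so antisense reads cannot be told apart.

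Columns were matched to samples by title. Values were analysed as log2(RPKM + 0.5) for the 10852 genes with a mean of at least 1 RPKM over the 6 libraries. DM-aKG was tested against control with limma 3.58.1 under R 4.3.3 (mean-variance trend, two-sided, no block), with Benjamini-Hochberg adjustment over all tested genes and calls at an adjusted p under 0.05. Pairs of genes were compared by exact permutation over the 20 assignments (scipy 1.17.1). Lists were described by counts and medians, with no set test. The fit was tested on simulated data with 50 genes changed at each of several sizes, far fewer than were called here. Of genes given a log2 change of 0.25, 28% were called, and 78% at 0.5, 92% at 1 and 100% at 2. The changed genes were drawn only from those with a control mean of log2(RPKM + 0.5) above 2. These rates therefore do not cover tested genes of lower level. Of 152 calls, 3 were false. A small change that was not called here can thus be real. Depth was read from short RNA genes (miRNA and snoRNA, up to 150 bases), for which 1 read is a large step: of 26 to 39 values per library of up to 5 reads, beside those that set the scale, 84.6% to 97.1% came out whole within 0.05 reads. Such depths cover counting error only. RPKM sums were 358636 to 374975 per library.

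The 10 genes and the lists were chosen with earlier results of these data known. Named genes were the 10, up to 4 called genes of each list with the smallest p, the 3 most like Axin2 (Pearson r over 6 libraries, mean of at least 3 RPKM), and defining cell markers. Axin1, Tcf7l2 and Ctnnb1 are named besides. Same-numbered control and DM-aKG libraries did not deviate together, so the numbers were not taken as pairs.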

Additional observations from a re-analysis of the deposited data

How the results depend on the processing

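The directions and calls of Axin2 and Sp5 held under all 18 alternatives, and Rnf43 was called under none of the 18. Znrf3 lost its call in 1 of 18, with log2 fold changes of -0.29 to -0.20 over the omissions of single libraries. The number of the 10 genes called higher went from 0 to 1 with no filter, with the filter at 0.5 RPKM (chosen after seeing the data), with array weights, without DM-aKG replicate 1 and when control replicate 2 and DM-aKG replicate 1 were both omitted (0 to 1 over single omissions); the gene was Notum under both filters and Tcf7 otherwise. Tcf7 reached 0.38 with array weights (limma, adjusted p = 0.00244) and 0.44 with both libraries omitted (0.072 to 0.35 over single omissions). Sox9 was called lower at -0.28 with array weights and -0.34 with both omitted (-0.38 to -0.10 over single omissions). Myc turned to -0.0016 with quantile normalization and to -0.053 with both omitted (-0.050 to 0.16 over single omissions). With a pseudocount of 0.1 the log2 differences of Nkd1 and Notum were -1.55 and 1.39; with no filter and with the filter at 0.5 RPKM, -0.94 and 0.90 were past the threshold, but at 0.5 RPKM both genes pass the filter only through the group where they are high, so that call is no test of them.

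Of the pairs, Rnf43 minus Myc turned to 0.0035 with both omitted. Znrf3 minus Sox9 turned to 0.00027 with quantile normalization and 0.11 with both omitted, and ranged from -0.16 to 0.18 over single omissions; Rnf43 minus Sox9 ranged from -0.041 to 0.22. The exact permutation test of 3 against 3 cannot go below 0.10 for any pair.

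Of all tested genes, calls split into 3354 higher and 2679 lower, 2790 and 3340 with median centring, 2861 and 3190 with quantile normalization and 3809 and 2254 with equal sums. Other antagonists called higher were 2 with no filter and 0 with the filter at 3 RPKM. TCF partners called lower were 3 with no filter and with equal sums (3 to 5 over single omissions), and called higher 5 with array weights and with both omitted (2 to 5 over single omissions). MYC-induced genes called higher were 2 with median centring and 3 with quantile normalization (2 to 6 over single omissions). Sox and Sp relatives called lower were 2 with the filter at 3 RPKM (2 to 4 over single omissions), and called higher 3 with equal sums, array weights or both omitted (0 to 3 over single omissions).

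With the replicate number as a replicate block, 3206 genes were called higher and 2542 lower, MYC-induced genes called higher were 3, and Axin2 (-0.69), Znrf3 (-0.25) and Sp5 (-0.56) kept their calls. Deviations of same-numbered libraries correlated at -0.08, -0.11 and 0.01, and no library correlated best with its own number. Cause was not tested for any of these. Counting depth limits Lef1, Notum and Nkd1.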
